A study of Homo sapiens with 12 samples.

Results

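NB-1 cells given SAHA alone were set against NB-1 cells given DMSO alone, across all genes. NB-1 is an established human neuroblastoma line in which the oncogenes MYCN and ALK are amplified, so every library comes from 1 cell line. The labels call the cultures of a group biological replicates. The p-values of single genes rest on the spread between replicate cultures, estimated over all 12 libraries of the series. The SAHA group held 3 cultures with 0.5 µM SAHA for 48 h, and the DMSO group held 3 cultures with the solvent for 48 h. These are 6 of the 12 libraries of the series. The other 6 were from cultures that received 0.5 µM BEZ-235, an inhibitor of the kinases PI3K and mTOR, together with 0.5 µM SAHA (3 cultures) or without it (3 cultures), also for 48 h. All 58051 genes of the table were eligible, and the 17774 with enough counts over the 12 libraries were tested. Polyadenylated RNA was sequenced, so transcripts without a poly(A) tail, most replication-dependent histone transcripts among them, were largely not captured.

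SAHA (vorinostat) is a hydroxamic acid that occupies the zinc-containing active site of class I, class II and class IV histone deacetylases. These enzymes remove acetyl groups from lysines of histone tails and of many other proteins, usually as subunits of corepressor complexes such as NuRD, SIN3, CoREST and NCoR. Acetylated lysines bind bromodomain proteins and go with open chromatin, and inhibitors of the enzymes are known to both raise and lower transcripts. Neuroblastoma arises from sympathoadrenal precursors, whose mature forms make catecholamines, store peptides in dense-core vesicles and grow neurites.

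The SAHA libraries held 19248541, 79543539 and 29544051 counts and the DMSO libraries 18942754, 21567418 and 22274589. SAHA replicate 2 was thus the deepest library, and results were also computed with it thinned and without it. Mitochondrial genes took 9.99 to 11.95% of counts with SAHA, highest in SAHA replicate 1, and 9.34 to 10.2% with DMSO. Values are CPM, counts scaled to 1e6 per library after normalisation. A CPM is a share of the library, so that in RNA of whole cultures fewer cells with a transcript and less of it per cell cannot be told apart. Between genes, CPM also rises with transcript length. Fold changes are log2 of SAHA over DMSO ± SE with n = 3 per group. The SE is derived from the test statistic of the fit of all 12 libraries, not from the values of the 2 groups alone. A gene is called where the 2-sided edgeR quasi-likelihood test gives a Benjamini-Hochberg adjusted p under 0.05 over all genes tested.

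The labelled cell type was checked against its defining transcripts. HAND2, a helix-loop-helix factor of sympathetic neurons, stood at 410.1, 396 and 416 CPM with SAHA, against 421, 452 and 351 CPM with DMSO, and GATA3, a zinc finger factor of the same lineage, at 161, 164 and 174 CPM with SAHA, against 167, 179 and 161 CPM with DMSO. The groups overlapped for both and neither was called. Other transcripts of the lineage did change. ISL1, a LIM homeobox factor, was at 28.1, 29.9 and 35.3 CPM with SAHA, against 26.3, 26.4 and 21.8 CPM with DMSO (log2 fold change 0.33 ± 0.11, adjusted p = 0.0218). DBH, the enzyme that makes noradrenaline, was scarce, at 1.13, 0.8297 and 0.893 CPM with SAHA, against 2.298, 1.98 and 1.65 CPM with DMSO (log2 fold change -1.08 ± 0.24, adjusted p = 0.00184). CHGA, the chromogranin of dense-core vesicles, was at 417, 429.8 and 466 CPM with SAHA, against 561, 533 and 505 CPM with DMSO (log2 fold change -0.28 ± 0.10, adjusted p = 0.0264), a call that was lost with the offsets for GC content and length and without SAHA replicate 1 or 2 or DMSO replicate 1 or 2. TH, a further marker, is given with the lowest genes. ALK, the amplified receptor kinase, was at 3739, 4114 and 3837 CPM with SAHA, against 4622, 3802 and 4370.3 CPM with DMSO and was not called (log2 fold change -0.13 ± 0.09, adjusted p = 0.274). MYCN, the amplified transcription factor gene of the MYC family, was at 895, 768 and 848 CPM with SAHA, against 926, 1157 and 1103 CPM with DMSO (log2 fold change -0.34 ± 0.10, adjusted p = 0.0104). All SAHA libraries lay below all DMSO libraries, but the call was lost without SAHA replicate 2. HBP1, a cell cycle repressor named in the title of the series, was at 76.4, 73.7 and 79.5 CPM with SAHA, against 59.8, 65.5 and 61.99 CPM with DMSO (log2 fold change 0.29 ± 0.10, adjusted p = 0.0321), a call that was lost when any single library of SAHA, DMSO replicate 1 or DMSO replicate 3 was left out. Of 22 leukocyte markers 4 had enough counts for the test, and the summed level of the list was 7.62 to 10.2 CPM with SAHA and 8.005 to 8.46 CPM with DMSO.

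SAHA changed a large share of the transcriptome in both directions, with larger steps upward than downward. Of the 17774 genes, 7658 were called (43.1%), 3945 of them higher with SAHA (22.2%) and 3713 lower (20.9%). At a change of at least 2-fold, 1372 genes were higher (7.72%) and 464 lower (2.61%). At 4-fold the numbers were 445 higher and 42 lower. The 3 SAHA libraries lay beyond the 3 DMSO libraries for 1360 of the 1372 and for 449 of the 464. The choice by call and fold favours groups that lie apart, so these 2 counts are a description. The median over all genes tested was -0.01 on the log2 scale. The scaling of the libraries (TMM) centres the fold changes. A shift shared by all genes would therefore show neither in this median nor in the balance of directions.

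The balance of calls differed between classes of expression level. Among 2972 genes with a mean under 1 CPM over the 6 libraries, 19.2% were higher with SAHA and 4.74% lower. Among 4487 genes at 30 to 100 CPM, 21.1% were higher and 29.8% lower. The excess of lower genes did not grow further with level. At 100 to 300 CPM 25.0% were higher and 26.3% lower, and at 300 to 1000 CPM 23.6% and 25.4%. Above 1000 CPM both shares were 19.4%. The share of large increases was highest in the scarce genes. At under 1 CPM 17.9% of genes rose at least 2-fold and 3.87% fell as much, whereas at 30 to 100 CPM these shares were 1.72% and 1.14%. The count filter kept a scarce gene where enough of the 12 libraries reached its minimum, so scarce genes had to be high in some group to be tested, and the shares in the lowest class are a description. Across genes, Spearman's correlation of the fold change with the mean level was -0.147 over 17774 genes that share these libraries.

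**Figure D1:**
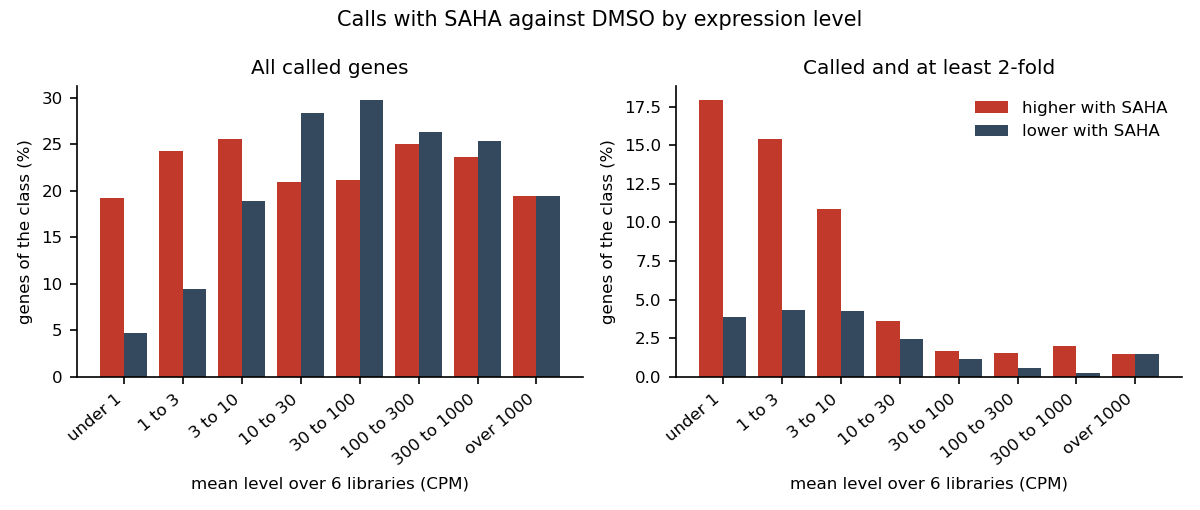
Share of tested genes called higher (red) or lower (dark blue) with SAHA against DMSO, by mean level over the 6 libraries in CPM; left, all called genes, and right, those at least 2-fold. Under 1 CPM 19.2% were higher and 4.74% lower, and at 30 to 100 CPM 21.1% were higher and 29.8% lower. Above 1000 CPM both shares were 19.4%.

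The 12 highest ranked genes, taken from called genes whose groups did not overlap, whose log2 CPM averaged 3 or more and whose symbol was no clone name, encode proteins of several unrelated tissues. PMEL, the fibril protein of melanosomes (ENSG00000185664, chromosome 12, 55954105 to 55973317 in build hg38), stood at 174, 157 and 158 CPM with SAHA, against 9.87, 10.4 and 9.69 CPM with DMSO. This was a 16.3-fold difference (log2 fold change 4.03 ± 0.10, adjusted p = 8.33e-14), and the spread within each group was small beside it. RGS5, a GTPase activator for heterotrimeric G proteins that is known as a pericyte transcript (ENSG00000143248, chromosome 1, 163111121 to 163321791), stood at 38.5, 31.5 and 35.1 CPM with SAHA, against 3.03, 2.16 and 2.27 CPM with DMSO (log2 fold change 3.82 ± 0.18, adjusted p = 4.22e-10). CAPN6, a member of the calpain family that lacks protease activity, stood at 52.5, 58.4 and 61.2 CPM with SAHA, against 6.89, 6.59 and 4.63 CPM with DMSO (log2 fold change 3.25 ± 0.13, adjusted p = 7.66e-11). The lowest SAHA library exceeded the highest DMSO library many times over for each of these genes.

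Adhesion, signalling and matrix genes made up most of the remaining ranks. CADM3, a neuronal adhesion molecule, stood at 87.3, 76.4 and 74.5 CPM with SAHA, against 11.4, 12.4 and 11.8 CPM with DMSO (log2 fold change 2.74 ± 0.09, adjusted p = 7.09e-12). EFNA3, a membrane-bound ephrin ligand of axon guidance, stood at 37.1, 30.2 and 32.2 CPM with SAHA, against 5.07, 5.93 and 4.98 CPM with DMSO (log2 fold change 2.63 ± 0.11, adjusted p = 1.07e-10). RAB6B, a neuronal GTPase of Golgi traffic, stood at 21.5, 23.2 and 21.1 CPM with SAHA, against 3.97, 3.58 and 3.74 CPM with DMSO (log2 fold change 2.55 ± 0.14, adjusted p = 1.29e-09). All 3 had narrow groups that lay far apart. The proteoglycan gene LUM was the most abundant of the 12 at 334, 313 and 335 CPM with SAHA, against 57.2, 62.3 and 62.5 CPM with DMSO (log2 fold change 2.43 ± 0.12, adjusted p = 9.71e-10). COL3A1, which encodes type III collagen, was the least even, at 45, 30.8 and 21.2 CPM with SAHA, against 4.701, 5.46 and 4.76 CPM with DMSO (log2 fold change 2.69 ± 0.25, adjusted p = 3.52e-06), with SAHA replicate 1 the highest. SPATS1, RGS9, CRTAC1 and ETNK2 completed the ranks with log2 fold changes of 2.803 ± 0.16, 2.35 ± 0.10, 2.42 ± 0.13 and 2.33 ± 0.11.

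**Figure D2:**
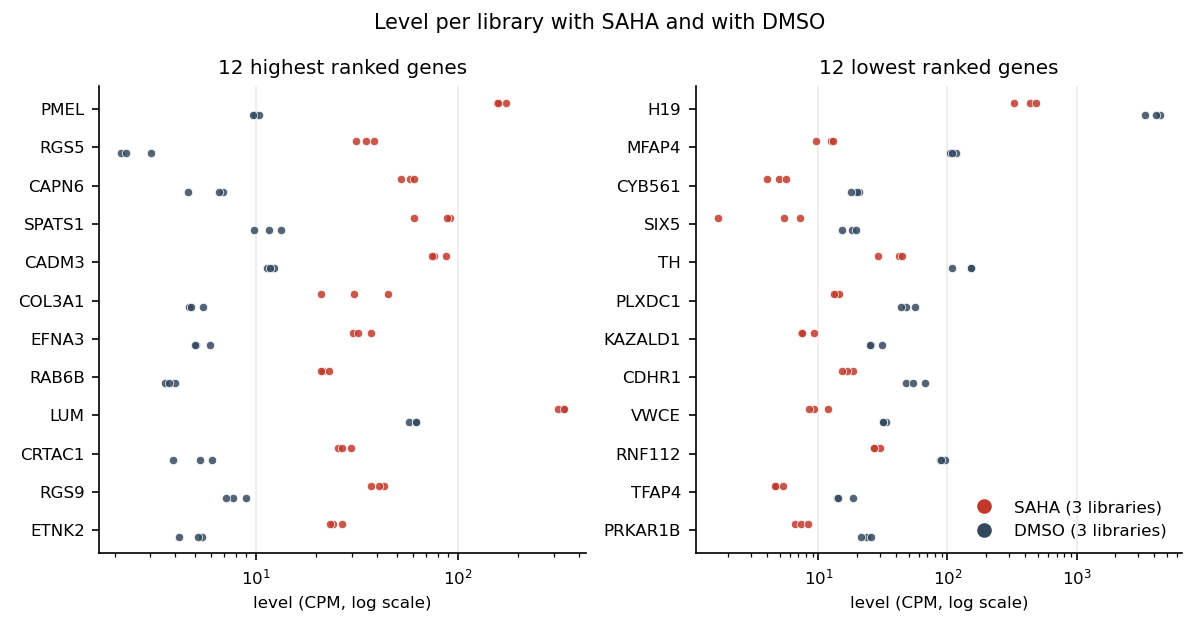
Level of each ranked gene in each library, in CPM on a log scale; SAHA libraries in red above and DMSO libraries in dark blue below, 3 points each. PMEL stood at 157 to 174 CPM with SAHA and 9.69 to 10.4 CPM with DMSO, and H19 at 328 to 485 CPM with SAHA and 3397 to 4427 CPM with DMSO.

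The 12 lowest ranked genes included an abundant imprinted RNA and genes of catecholamine cells. H19, an imprinted long non-coding RNA (ENSG00000130600, chromosome 11, 1995176 to 2001470), fell to 328, 433 and 485 CPM with SAHA, against 4427, 4111 and 3397 CPM with DMSO. It was 9.58-fold lower (log2 fold change -3.26 ± 0.16, adjusted p = 2.901e-09) and the groups were far from overlapping. MFAP4, a glycoprotein of elastic fibres (ENSG00000166482, chromosome 17, 19383442 to 19387240), fell to 9.62, 12.5 and 12.9 CPM with SAHA, against 105, 116 and 108 CPM with DMSO, which is 9.27-fold lower (log2 fold change -3.21 ± 0.10, adjusted p = 4.68e-12). TH, the rate-limiting enzyme of catecholamine synthesis, stood at 29.1, 41.9 and 44.7 CPM with SAHA, against 152, 153 and 109 CPM with DMSO (log2 fold change -1.83 ± 0.25, adjusted p = 2.13e-04). SAHA replicate 1 was the lowest library for both H19 and TH. CYB561, the cytochrome that passes electrons into catecholamine vesicles, stood at 3.96, 4.95 and 5.63 CPM with SAHA, against 20.8, 19.95 and 17.7 CPM with DMSO (log2 fold change -1.99 ± 0.14, adjusted p = 1.92e-08).

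Receptors and regulators filled the other ranks. The transmembrane receptor gene PLXDC1 stood at 13.7, 14.5 and 13.2 CPM with SAHA, against 56.1, 47.5 and 43.9 CPM with DMSO (log2 fold change -1.83 ± 0.11, adjusted p = 2.58e-09), and CDHR1, a cadherin-related protein of photoreceptors, at 18.5, 16.6 and 15.1 CPM with SAHA, against 66.4, 47.8 and 53.9 CPM with DMSO (log2 fold change -1.75 ± 0.11, adjusted p = 7.01e-09). TFAP4, a helix-loop-helix factor that binds E-boxes and is a known MYC target, stood at 4.68, 4.61 and 5.32 CPM with SAHA, against 14, 18.6 and 14.2 CPM with DMSO (log2 fold change -1.69 ± 0.15, adjusted p = 3.19e-07). The homeobox gene SIX5 was uneven, at 5.4, 1.66 and 7.18 CPM with SAHA, against 18.1, 19.5 and 15.3 CPM with DMSO (log2 fold change -1.99 ± 0.44, adjusted p = 0.00475), with the deepest library far below the other 2. KAZALD1, VWCE, RNF112 and PRKAR1B, the last a regulatory subunit of protein kinase A, had log2 fold changes of -1.76 ± 0.14, -1.74 ± 0.14, -1.697 ± 0.08 and -1.66 ± 0.13.

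H19 and TH lie near each other on chromosome 11, and their neighbours did not all move the same way. IGF2, the imprinted growth factor gene between them (ENSG00000167244, chromosome 11, 2129112 to 2149603), was scarce and higher, at 2.52, 1.67 and 1.72 CPM with SAHA, against 0.209, 0.376 and 0.133 CPM with DMSO (log2 fold change 2.996 ± 0.39, adjusted p = 1.33e-05). TH (ENSG00000180176, chromosome 11, 2163929 to 2171877) lay below its DMSO level as given above. CDKN1C, an imprinted inhibitor of cyclin-dependent kinases (ENSG00000129757, chromosome 11, 2883213 to 2885773), stood at 4.78, 6.34 and 7.04 CPM with SAHA, against 18.6, 19.6 and 15.8 CPM with DMSO (log2 fold change -1.55 ± 0.16, adjusted p = 1.31e-06). A readthrough gene overlaps IGF2, so reads may be split between them. In this stretch 3 of the 4 genes named fell and IGF2 rose, and the groups of none overlapped. The 4 were picked out after their values were seen.

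Promoter sequence was read for the members that RefSeq lists (build GRCh38.p14, 250 bases before to 50 after the gene start), 11726 of the 17774 genes. A window was counted as CpG-rich at an observed to expected CpG ratio of at least 0.6 and a GC content of at least 50%. Of all genes tested 78.1% had such a promoter. The share was 61.4% among 884 genes at least 2-fold higher with SAHA, 63.8% among 290 at least 2-fold lower, and 52.1% among 73 genes that were near silent in DMSO and called higher, as defined below. Among all genes called it was 73.7% for those higher and 82.4% for those lower. Among genes changed at least 2-fold the share was below that of all genes tested in both directions. Expression level differs between these groups as well, and its part in the shares was not tested.

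Windows of changed genes show how unlike the sequences are. The next 4 are from RGS5, among the highest ranked genes (chr1:163321686-163321985, minus strand), GMPR and CNN1, both near silent in DMSO (chr6:16238337-16238636 and chr19:11538601-11538900, plus strand), and H19, the lowest ranked gene (chr11:2001217-2001516, minus strand). They are written 5′ to 3′ with each CpG in capitals.
RGS5: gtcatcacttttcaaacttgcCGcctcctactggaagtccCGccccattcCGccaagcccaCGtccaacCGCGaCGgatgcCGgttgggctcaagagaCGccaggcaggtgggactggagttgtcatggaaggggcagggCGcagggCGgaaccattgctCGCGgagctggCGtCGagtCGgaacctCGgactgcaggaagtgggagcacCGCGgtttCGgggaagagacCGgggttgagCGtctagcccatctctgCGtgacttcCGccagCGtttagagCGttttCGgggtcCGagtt
GMPR: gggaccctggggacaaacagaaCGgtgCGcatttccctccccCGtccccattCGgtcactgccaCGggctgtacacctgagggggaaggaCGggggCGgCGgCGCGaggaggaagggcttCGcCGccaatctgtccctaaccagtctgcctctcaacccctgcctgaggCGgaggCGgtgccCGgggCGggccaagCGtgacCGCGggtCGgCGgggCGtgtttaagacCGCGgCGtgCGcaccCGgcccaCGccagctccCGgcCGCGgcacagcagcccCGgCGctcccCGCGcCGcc
CNN1: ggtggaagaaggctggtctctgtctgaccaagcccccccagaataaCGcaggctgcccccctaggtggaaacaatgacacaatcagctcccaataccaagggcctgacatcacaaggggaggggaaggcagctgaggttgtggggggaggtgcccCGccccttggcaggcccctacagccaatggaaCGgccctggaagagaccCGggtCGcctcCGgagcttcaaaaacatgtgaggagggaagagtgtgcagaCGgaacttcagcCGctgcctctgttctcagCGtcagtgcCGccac
H19: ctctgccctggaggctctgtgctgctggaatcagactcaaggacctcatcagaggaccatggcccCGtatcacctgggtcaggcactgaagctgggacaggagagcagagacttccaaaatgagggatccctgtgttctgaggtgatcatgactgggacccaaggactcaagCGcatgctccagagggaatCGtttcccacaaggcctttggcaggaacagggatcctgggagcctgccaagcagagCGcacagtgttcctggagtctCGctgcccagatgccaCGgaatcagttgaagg
RGS5 and GMPR had 28 and 36 CpGs in the window (observed to expected 0.948 and 0.885), CNN1 had 10 (0.355) and H19 had 6 (0.242). Genes that rose strongly were thus found with both kinds of window.

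The deacetylase genes themselves changed by less than 2-fold. Of the 11 genes of classes I, II and IV, all tested, 5 were called higher and 2 lower, with a median log2 fold change of 0.14. Over all genes tested 22.2% were called higher and 20.9% lower. HDAC9 stood at 72.4, 68.5 and 66.6 CPM with SAHA, against 42.2, 35.9 and 48.7 CPM with DMSO (log2 fold change 0.71 ± 0.09, adjusted p = 1.39e-05), and HDAC11, the class IV enzyme, at 13.2, 13.3 and 15.8 CPM with SAHA, against 8.15, 9.79 and 6.804 CPM with DMSO (log2 fold change 0.77 ± 0.14, adjusted p = 3.22e-04). HDAC1, the class I core of several corepressors, stood at 58.1, 56.5 and 54.1 CPM with SAHA, against 41.4, 46.3 and 40.5 CPM with DMSO (log2 fold change 0.39 ± 0.08, adjusted p = 7.23e-04). The groups were apart for these 3, all higher with SAHA. HDAC7 was lower, at 30.3, 26.95 and 26.1 CPM with SAHA, against 44.03, 44.1 and 40.9 CPM with DMSO (log2 fold change -0.63 ± 0.09, adjusted p = 5.16e-05). HDAC8, HDAC5 and HDAC10 were called with log2 fold changes of 0.46 ± 0.09, 0.30 ± 0.09 and -0.81 ± 0.24, the last lower. The call of HDAC5 was lost without DMSO replicate 3, and that of HDAC10 without DMSO replicate 1, SAHA replicate 2 or SAHA replicate 3. HDAC2 and HDAC3, 2 further class I enzymes, had log2 fold changes of 0.12 ± 0.10 and 0.14 ± 0.07 and were not called (adjusted p = 0.364 and 0.143), nor were HDAC4 and HDAC6.

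Of 31 corepressor subunits, which hold the deacetylases, 4 were called higher and 8 lower, near the 20.9% lower over all genes, and over the alternatives 3 to 7 were higher and 6 to 16 lower. Of 27 acetyltransferases and bromodomain readers 2 were higher and 12 lower, with 1 to 2 higher and 12 to 19 lower over the alternatives. MBD3, a NuRD subunit, stood at 34.6, 29.7 and 33.2 CPM with SAHA, against 72.8, 90.9 and 62.5 CPM with DMSO (log2 fold change -1.22 ± 0.18, adjusted p = 1.43e-04). RCOR2, of the CoREST complexes, stood at 42.1, 47.4 and 49.1 CPM with SAHA, against 89.5, 94.3 and 73.1 CPM with DMSO (log2 fold change -0.89 ± 0.11, adjusted p = 5.38e-06). CHD5, the neuronal remodeller of NuRD, went the other way, at 13.4, 14.6 and 10.8 CPM with SAHA, against 3.29, 2.35 and 2.53 CPM with DMSO (log2 fold change 2.26 ± 0.18, adjusted p = 7.09e-08), while its relative CHD3 stood at 111, 113 and 97.9 CPM with SAHA, against 184, 169 and 184 CPM with DMSO (log2 fold change -0.74 ± 0.08, adjusted p = 3.26e-06). Among the acetyltransferases KAT2A, also called GCN5, stood at 54.6, 47.7 and 40.2 CPM with SAHA, against 99.7, 107 and 104 CPM with DMSO (log2 fold change -1.13 ± 0.11, adjusted p = 6.22e-07), and BRPF3, a bromodomain subunit of acetyltransferase complexes, at 14.2, 15.9 and 14.4 CPM with SAHA, against 32.5, 30.6 and 35 CPM with DMSO (log2 fold change -1.13 ± 0.09, adjusted p = 8.81e-08). Each of these had no overlap between groups.

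Genes that HDAC inhibitors are known to raise in many cell types were mostly higher, but not all. Of 29 such genes 27 were tested, with 17 called higher, 7 lower and a median of 0.63. Over all genes tested 22.2% were called higher and 20.9% lower. CD9, a tetraspanin, stood at 280.1, 288 and 293 CPM with SAHA, against 119, 139 and 123 CPM with DMSO (log2 fold change 1.17 ± 0.08, adjusted p = 2.402e-08), and TXNIP, the thioredoxin inhibitor, at 396, 374 and 348 CPM with SAHA, against 196, 177 and 167 CPM with DMSO (log2 fold change 1.05 ± 0.08, adjusted p = 6.25e-08). DHRS2, a mitochondrial dehydrogenase, stood at 6.48, 7.76 and 6.45 CPM with SAHA, against 1.57, 1.65 and 1.25 CPM with DMSO (log2 fold change 2.24 ± 0.19, adjusted p = 1.39e-07). CDKN1A, which encodes the cell cycle inhibitor p21, stood at 268, 299.8 and 294 CPM with SAHA, against 198, 218 and 196 CPM with DMSO (log2 fold change 0.50 ± 0.08, adjusted p = 1.18e-04), a rise of less than 2-fold. The 7 that fell included CDKN1C, given above, and 2 histone genes with polyadenylated transcripts. HIST2H2BE stood at 21.04, 20.8 and 21.6 CPM with SAHA, against 58.6, 63.1 and 55.99 CPM with DMSO (log2 fold change -1.49 ± 0.10, adjusted p = 1.83e-08), and HIST1H2BK at 3.6, 3.18 and 3.02 CPM with SAHA, against 7.94, 9.65 and 7.47 CPM with DMSO (log2 fold change -1.36 ± 0.16, adjusted p = 3.29e-06).

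Histone genes changed in both directions. Of 21 tested histone genes with polyadenylated transcripts 4 were called higher and 7 lower, beside 22.2% higher and 20.9% lower over all genes tested. Those called higher included 2 linker histone genes and the H2A variant gene H2AFV, at 211, 229.6 and 235 CPM with SAHA, against 151, 156 and 147 CPM with DMSO (log2 fold change 0.57 ± 0.07, adjusted p = 7.93e-06). The linker histone gene HIST1H1C stood at 44.5, 31.4 and 28.8 CPM with SAHA, against 8.72, 9.36 and 7.65 CPM with DMSO (log2 fold change 2.02 ± 0.19, adjusted p = 1.13e-06), and H1F0, the replacement linker histone of resting cells, at 879.9, 972 and 1012 CPM with SAHA, against 535, 539 and 468 CPM with DMSO (log2 fold change 0.89 ± 0.08, adjusted p = 3.48e-07). H2AFY2, a macroH2A gene, was lower and stood at 56.7, 67.6 and 70.1 CPM with SAHA, against 141, 151 and 125 CPM with DMSO (log2 fold change -1.096 ± 0.09, adjusted p = 1.73e-07). These libraries hold only the polyadenylated part of histone RNA, so the values do not give total histone RNA. Of 15 tested writers, erasers and readers of DNA methylation none was called higher and 6 were called lower, beside the same shares over all genes. Among the 6, DNMT1 stood at 155, 159.7 and 152 CPM with SAHA, against 229.8, 219.6 and 226 CPM with DMSO (log2 fold change -0.54 ± 0.07, adjusted p = 2.18e-05).

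**Figure D3:**
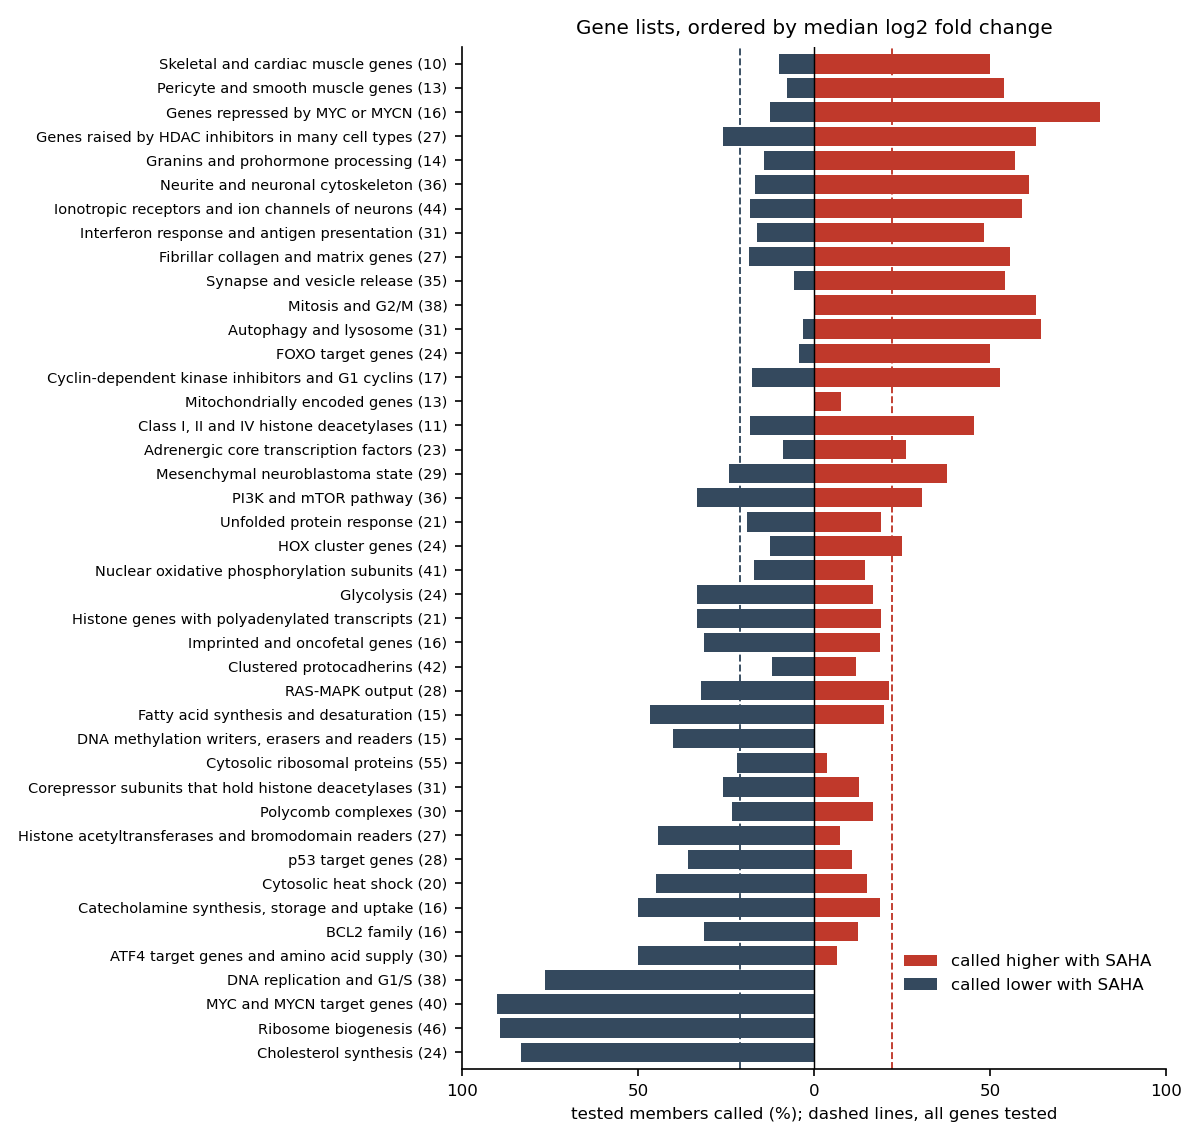
Share of the tested members of each gene list called higher (red, to the right) or lower (dark blue, to the left) with SAHA against DMSO, for lists with at least 10 tested members, whose number is in brackets; dashed lines mark the shares over all genes tested, 22.2% and 20.9%. The lists of MYC target genes, ribosome biogenesis, cholesterol synthesis and DNA replication held no member called higher, and the list of mitosis genes held none called lower.

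Neuronal genes were higher with SAHA in most of the lists, beside background shares of 22.2% higher and 20.9% lower over all genes. Of 36 genes of neurites and the neuronal cytoskeleton 22 were called higher and 6 lower, and of 35 tested genes of synapses and vesicle release 19 higher and 2 lower. NCAM2, an adhesion molecule of axons, stood at 82.6, 80.02 and 77.4 CPM with SAHA, against 17.6, 17.5 and 16.99 CPM with DMSO (log2 fold change 2.21 ± 0.09, adjusted p = 5.897e-11). CNTN1, an axonal contactin, stood at 371, 345 and 333 CPM with SAHA, against 139, 113 and 145 CPM with DMSO (log2 fold change 1.401 ± 0.09, adjusted p = 7.997e-09), and SYN2, a synapsin that tethers vesicles, at 449, 482 and 481 CPM with SAHA, against 212, 221 and 216 CPM with DMSO (log2 fold change 1.12 ± 0.08, adjusted p = 1.22e-08). SYT7, a calcium sensor of exocytosis, stood at 20.2, 16.1 and 15.1 CPM with SAHA, against 5.22, 4.19 and 4.31 CPM with DMSO (log2 fold change 1.899 ± 0.15, adjusted p = 1.01e-07). None of these groups overlapped. The 6 neurite genes that fell included the tubulin gene TUBB3 at 56.6, 65.3 and 70.7 CPM with SAHA, against 124, 122 and 97.97 CPM with DMSO (log2 fold change -0.83 ± 0.13, adjusted p = 1.36e-04) and RBFOX3, the splicing factor known as NeuN, at 3.09, 2.703 and 2.64 CPM with SAHA, against 6.53, 6.82 and 5.96 CPM with DMSO (log2 fold change -1.21 ± 0.19, adjusted p = 7.099e-05).

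Ion channels and ionotropic receptors were mostly higher, with 26 of 44 tested genes higher and 8 lower. Over all genes the shares were 22.2% higher and 20.9% lower, so the number of channels lower was near that share. The sodium channel gene SCN1A (ENSG00000144285, chromosome 2, 165984641 to 166149214) stood at 9.62, 5.03 and 5.29 CPM with SAHA, against 0.157, 0.235 and 0.489 CPM with DMSO (log2 fold change 4.43 ± 0.39, adjusted p = 2.44e-07), and SCN3A on the same chromosome (ENSG00000153253, chromosome 2, 165087522 to 165204067) at 19.1, 19.4 and 15.4 CPM with SAHA, against 3.97, 2.73 and 5.203 CPM with DMSO (log2 fold change 2.18 ± 0.20, adjusted p = 2.79e-07). SCN1A was highest in SAHA replicate 1. Of the channels that fell, the acid-sensing gene ASIC4 had the largest change, at 2.01, 1.99 and 2.03 CPM with SAHA, against 15.9, 14.4 and 15.4 CPM with DMSO (log2 fold change -2.93 ± 0.17, adjusted p = 3.36e-09), with narrow groups that lay far apart. ASIC1, of the same family, was at 45.7, 42.9 and 41.6 CPM with SAHA, against 75.1, 71.7 and 73.1 CPM with DMSO (log2 fold change -0.76 ± 0.09, adjusted p = 3.699e-06).

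Several genes of secretory peptides rose while several of catecholamine metabolism fell. Of 14 tested granins and prohormone-processing genes 8 were called higher and 2 lower. SCG2, the precursor of secretoneurin, stood at 669, 565 and 535 CPM with SAHA, against 154, 146 and 148 CPM with DMSO (log2 fold change 1.98 ± 0.10, adjusted p = 8.04e-10), PAM, which amidates peptide hormones, at 288, 266 and 281 CPM with SAHA, against 122, 115 and 120.4 CPM with DMSO (log2 fold change 1.22 ± 0.08, adjusted p = 6.66e-09), and TAC3, the precursor of neurokinin B, at 17.9, 10.2 and 10.2 CPM with SAHA, against 1.097, 1.27 and 1.02 CPM with DMSO (log2 fold change 3.47 ± 0.24, adjusted p = 3.96e-08). Of the granins that fell, VGF stood at 106, 94.9 and 107 CPM with SAHA, against 248, 246 and 181 CPM with DMSO (log2 fold change -1.13 ± 0.20, adjusted p = 9.204e-04). Of 16 tested genes of catecholamine synthesis, storage and uptake 3 were higher and 8 lower. The synthetic enzymes TH and DDC both fell, DDC to 66.7, 80.2 and 82.4 CPM with SAHA, against 120.4, 122 and 108 CPM with DMSO (log2 fold change -0.61 ± 0.09, adjusted p = 8.04e-05), and so did the scarce noradrenaline transporter gene SLC6A2, at 0.257, 0.415 and 0.412 CPM with SAHA, against 1.57, 1.22 and 1.65 CPM with DMSO (log2 fold change -1.96 ± 0.31, adjusted p = 9.84e-05). The monoamine oxidase gene MAOA, which degrades these amines, rose to 63.3, 78.1 and 81.5 CPM with SAHA, against 43.5, 39.9 and 35.6 CPM with DMSO (log2 fold change 0.91 ± 0.12, adjusted p = 1.21e-05). Of 23 tested core transcription factors of the adrenergic state 6 were higher and 2 lower, beside 22.2% higher and 20.9% lower over all genes. Over the alternatives 4 to 9 were higher and 1 to 3 lower.

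Most genes of growth and ribosome production were lower, beside background shares of 22.2% higher and 20.9% lower over all genes. Of 40 MYC and MYCN target genes none was called higher and 36 were called lower (median -0.47), and of 46 ribosome biogenesis genes none was higher and 41 were lower (median -0.57). The steps were mostly under 2-fold, with 8 and 4 genes beyond it. CAD, the enzyme that starts pyrimidine synthesis, stood at 72.2, 74.2 and 68.2 CPM with SAHA, against 175, 176 and 187 CPM with DMSO (log2 fold change -1.32 ± 0.08, adjusted p = 3.097e-09). UTP20, of the small-subunit processome, stood at 27.98, 32.6 and 32.1 CPM with SAHA, against 76, 72.7 and 87.2 CPM with DMSO (log2 fold change -1.34 ± 0.10, adjusted p = 3.96e-08), and NOL6 of the same particle at 35.1, 36.2 and 34.1 CPM with SAHA, against 76.2, 82.7 and 82.8 CPM with DMSO (log2 fold change -1.195 ± 0.08, adjusted p = 2.205e-08). In each the highest SAHA library was below the lowest DMSO library. Of 16 tested genes that MYC or MYCN represses, 13 were higher and 2 lower, among them NDRG2 at 45.9, 42.04 and 40.2 CPM with SAHA, against 11.9, 12.2 and 12.3 CPM with DMSO (log2 fold change 1.81 ± 0.09, adjusted p = 3.27e-10). That list shares members, TXNIP and CDKN1C among them, with the list of genes that HDAC inhibitors raise, so the 2 counts are not independent.

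The E-box CACGTG, which MYC family proteins and other helix-loop-helix factors bind, was looked for in the promoter windows. It reads the same on both strands. It was in 9.91% of the 11726 windows of genes tested and in 7.43% of all 27305 windows in the RefSeq table. It was in 12.9% of 2883 windows of genes called lower and 8.12% of 2882 windows of genes called higher. For genes at least 2-fold lower or higher the shares were 14.5% of 290 and 6.90% of 884. In the MYC list 14 of 35 windows held it (40%) and in the ribosome biogenesis list 14 of 40 (35%). Another motif, the GC box GGGCGG on either strand, differed less, at 69.5% of windows of genes called lower and 68.6% of those called higher, against 68.4% of all tested. Its shares for genes at least 2-fold lower or higher were 66.9% and 63.1%, both under that of all tested. A match is a description of letters in the window and shows no binding.

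The windows of the 4 members of the MYC list with an E-box and the largest falls are given 5′ to 3′ with CACGTG in capitals. They belong to MYBBP1A, a nucleolar protein (chr17:4555335-4555634, minus strand), RRP9, a protein of the box C/D small nucleolar particle U3 (chr3:51941855-51942154, minus strand), IPO4, an importin (chr14:24188767-24189066, minus strand), and SRM, the spermidine synthase (chr1:11059969-11060268, minus strand).
MYBBP1A: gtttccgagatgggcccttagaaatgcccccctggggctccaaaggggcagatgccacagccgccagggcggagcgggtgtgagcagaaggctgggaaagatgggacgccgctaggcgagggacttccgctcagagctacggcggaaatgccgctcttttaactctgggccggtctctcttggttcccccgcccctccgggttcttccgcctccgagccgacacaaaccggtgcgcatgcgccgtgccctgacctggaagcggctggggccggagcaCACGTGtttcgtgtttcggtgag
RRP9: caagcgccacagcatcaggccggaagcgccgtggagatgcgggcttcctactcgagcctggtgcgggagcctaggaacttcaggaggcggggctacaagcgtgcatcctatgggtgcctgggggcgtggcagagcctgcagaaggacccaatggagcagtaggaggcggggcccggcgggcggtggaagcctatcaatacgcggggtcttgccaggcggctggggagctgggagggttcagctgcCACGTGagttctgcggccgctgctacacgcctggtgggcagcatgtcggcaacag
IPO4: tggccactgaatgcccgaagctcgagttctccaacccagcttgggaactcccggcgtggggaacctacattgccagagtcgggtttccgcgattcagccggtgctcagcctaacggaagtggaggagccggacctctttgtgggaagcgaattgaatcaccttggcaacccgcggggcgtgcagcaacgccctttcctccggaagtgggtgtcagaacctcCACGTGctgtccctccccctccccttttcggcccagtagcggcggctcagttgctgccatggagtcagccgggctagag
SRM: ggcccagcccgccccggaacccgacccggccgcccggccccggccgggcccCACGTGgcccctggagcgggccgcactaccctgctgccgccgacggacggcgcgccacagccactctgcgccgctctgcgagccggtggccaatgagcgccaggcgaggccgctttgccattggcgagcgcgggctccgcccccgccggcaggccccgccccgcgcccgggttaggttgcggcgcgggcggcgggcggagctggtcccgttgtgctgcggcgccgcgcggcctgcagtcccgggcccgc
MYBBP1A stood at 27.7, 26.4 and 26.2 CPM with SAHA, against 77.5, 82.02 and 69.3 CPM with DMSO (log2 fold change -1.51 ± 0.11, adjusted p = 4.05e-08), and IPO4 at 26.2, 22.6 and 22.5 CPM with SAHA, against 52.6, 61.7 and 49.5 CPM with DMSO (log2 fold change -1.21 ± 0.10, adjusted p = 2.06e-07). RRP9 and SRM had log2 fold changes of -1.31 and -1.09. The motif began 5 bases before the annotated start in RRP9, 29 before it in IPO4 and 199 before it in SRM, and at base 28 of the transcribed part in MYBBP1A.

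Cell cycle genes went in opposite directions by phase. Of 38 DNA replication and G1/S genes none was called higher and 29 were lower (median -0.37), and of 38 mitosis and G2/M genes 24 were higher and none lower (median 0.32). No gene of either list changed 2-fold. MCM7, a subunit of the replicative helicase, stood at 182, 197 and 186 CPM with SAHA, against 277, 297 and 267 CPM with DMSO (log2 fold change -0.57 ± 0.07, adjusted p = 6.68e-06). TOP2A, the topoisomerase of mitotic chromosomes, stood at 875, 970.2 and 939.8 CPM with SAHA, against 611, 573 and 601 CPM with DMSO (log2 fold change 0.64 ± 0.10, adjusted p = 5.12e-05), and the proliferation marker MKI67 at 1162, 1236 and 1066 CPM with SAHA, against 789, 632 and 796 CPM with DMSO (log2 fold change 0.64 ± 0.09, adjusted p = 3.505e-05). The groups did not overlap in any of the 3. With BEZ-235 and SAHA against BEZ-235, in which 29.5% of all genes tested were called higher and 28.5% lower, the replication list had 4 higher and 22 lower, and the mitosis list 2 higher and 18 lower. The mitosis list thus had more genes called higher than lower without BEZ-235 and more called lower than higher with it, and 25 of its 38 genes were called in the test of the difference between both SAHA effects, beside 38.4% of all genes tested. The fold change of BEZ-235 and SAHA against BEZ-235 also went with the GC content of transcripts (Spearman's correlation 0.5). The part of GC content in these counts was not tested. With SAHA against DMSO, 3 of 28 p53 target genes were higher, CDKN1A among them, and 10 lower. Of 16 tested BCL2 family genes 2 were higher and 5 lower, with 1 to 2 higher and 3 to 7 lower over the alternatives. Over all genes tested 22.2% were higher and 20.9% lower with SAHA against DMSO. The proapoptotic gene BMF stood at 79.7, 62.5 and 62.3 CPM with SAHA, against 22.3, 29.3 and 25.2 CPM with DMSO (log2 fold change 1.41 ± 0.11, adjusted p = 7.12e-08) and the proapoptotic gene BID at 33.1, 31.5 and 35.7 CPM with SAHA, against 60.6, 74.1 and 57.5 CPM with DMSO (log2 fold change -0.94 ± 0.10, adjusted p = 1.302e-06).

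Cholesterol enzymes mostly fell and lysosomal genes mostly rose, beside background shares of 22.2% higher and 20.9% lower over all genes. Of 24 tested cholesterol synthesis genes none was called higher and 20 were lower (median -0.60). ACAT2, an early enzyme of the pathway, stood at 31.1, 37.8 and 37.8 CPM with SAHA, against 115, 113 and 98.9 CPM with DMSO (log2 fold change -1.61 ± 0.11, adjusted p = 1.03e-08), and SQLE, the squalene epoxidase, at 77.8, 81.2 and 87.5 CPM with SAHA, against 173, 163 and 164 CPM with DMSO (log2 fold change -1.02 ± 0.08, adjusted p = 5.84e-08). The amino acid transporter gene SLC7A5, from a list of ATF4 targets with 2 higher and 15 lower of 30, stood at 44.5, 49.8 and 47.6 CPM with SAHA, against 118, 122 and 111 CPM with DMSO (log2 fold change -1.31 ± 0.08, adjusted p = 8.03e-09). Of 31 tested genes of autophagy and the lysosome 20 were higher and 1 was lower. The protease gene CTSB stood at 643, 601 and 618 CPM with SAHA, against 240.2, 258 and 246 CPM with DMSO (log2 fold change 1.32 ± 0.07, adjusted p = 9.59e-10), GABARAPL1, of the ATG8 family, at 19.5, 16.4 and 16.9 CPM with SAHA, against 4.596, 5.51 and 4.002 CPM with DMSO (log2 fold change 1.899 ± 0.13, adjusted p = 1.92e-08), and NPC2, which moves cholesterol out of lysosomes, at 41.6, 41.2 and 45.9 CPM with SAHA, against 18.02, 22.3 and 17.7 CPM with DMSO (log2 fold change 1.15 ± 0.11, adjusted p = 3.85e-07).

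Some transcripts typical of other lineages were higher from low levels, beside shares of 22.2% called higher and 20.9% lower over all genes. Of 13 pigment cell genes 6 were tested, with 5 higher and none lower, and the number higher was 2 to 5 over the alternatives. Of 27 keratin and epithelial genes 7 were tested, with 1 higher and 1 lower, and of the 4 leukocyte markers tested 1 was higher. MITF, the factor that drives the pigment cell lineage, stood at 2.11, 1.85 and 1.96 CPM with SAHA, against 0.209, 0.376 and 0.578 CPM with DMSO (log2 fold change 2.301 ± 0.39, adjusted p = 1.52e-04), while PMEL gave most of the pigment cell list's summed level of 164 to 183 CPM with SAHA and 12.6 to 12.9 CPM with DMSO. Of 34 muscle genes 10 were tested, with 5 higher and 1 lower. The slow troponin gene TNNT1 stood at 3.91, 3.63 and 3.85 CPM with SAHA, against 0, 0.423 and 0.311 CPM with DMSO (log2 fold change 3.88 ± 0.40, adjusted p = 1.35e-06), but the cardiac troponin gene TNNT2 at 0.771, 0.867 and 0.618 CPM with SAHA, against 4.65, 3.53 and 3.65 CPM with DMSO (log2 fold change -2.36 ± 0.24, adjusted p = 9.76e-07). Of 15 pericyte and smooth muscle genes 13 were tested, with 7 higher and 1 lower, and PDGFRB, the receptor that marks pericytes, stood at 16.7, 12.9 and 12.4 CPM with SAHA, against 5.85, 5.83 and 4.403 CPM with DMSO (log2 fold change 1.38 ± 0.14, adjusted p = 1.35e-06). The count filter passes scarce genes more readily where they are high in a group, so these counts over tested members describe them and no more.

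Matrix and immune genes changed in both directions. Of 27 tested collagen and matrix genes 15 were higher and 5 lower, beside 22.2% higher and 20.9% lower over all genes. DCN, a proteoglycan like LUM, stood at 14.97, 13.9 and 16.7 CPM with SAHA, against 1.51, 1.13 and 1.38 CPM with DMSO (log2 fold change 3.497 ± 0.19, adjusted p = 1.43e-09), whereas BGN, of the same family, stood at 31.1, 27.8 and 29.2 CPM with SAHA, against 90.6, 96.2 and 86.6 CPM with DMSO (log2 fold change -1.64 ± 0.10, adjusted p = 3.84e-09). Fibroblasts are known for both. The summed level of the matrix list was 1869 to 2072 CPM with SAHA and 1539 to 1582 CPM with DMSO. Of 16 Schwann cell and glial markers 8 were tested, with 5 higher and 1 lower, and their sum was 959.8 to 1048 CPM with SAHA and 584 to 639.9 CPM with DMSO. The part of other cell types in these results was not tested. Of 31 tested genes of interferon response and antigen presentation 15 were higher and 5 lower, beside the same shares over all genes. CD74, the invariant chain of MHC class II, stood at 20.5, 16.4 and 16.5 CPM with SAHA, against 2.45, 2.78 and 2.36 CPM with DMSO (log2 fold change 2.81 ± 0.14, adjusted p = 6.19e-10), IFI6, an interferon-induced gene, at 10.6, 8.64 and 10.1 CPM with SAHA, against 1.36, 1.74 and 1.16 CPM with DMSO (log2 fold change 2.77 ± 0.19, adjusted p = 1.83e-08), and PSMB10, a subunit of the immunoproteasome, at 3.96, 3.23 and 3.399 CPM with SAHA, against 7.68, 9.83 and 6.23 CPM with DMSO (log2 fold change -1.18 ± 0.20, adjusted p = 1.69e-04). Of 50 germ cell and cancer-testis genes only 6 were tested, 26 were at 0 in all 6 libraries, and TEX19 had the largest rise at 16.3, 13.4 and 14.1 CPM with SAHA, against 1.93, 2.4 and 1.47 CPM with DMSO (log2 fold change 2.91 ± 0.16, adjusted p = 1.97e-09).

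Genes near silent in DMSO were raised to low levels. A gene was counted as near silent at a mean under 0.1 CPM over the DMSO libraries, which is about 2 reads a library. Of 37551 such genes 201 were tested, which they could be only through counts in other groups. Of these 134 were called higher with SAHA and none lower, and 131 of the 134 did not overlap with DMSO, which the choice by call favours. The number follows the filter and the cutoff: it was 59 where only the 6 libraries were fitted, 481 with no filter, 71 under a cutoff of 0.05 CPM and 421 under a cutoff of 0.3 CPM. Since the filter selects genes that are high somewhere, the proportion of the 201 is not read further. Of the 134, 92 were protein coding, 16 were lincRNAs and 11 antisense RNAs. Their level with SAHA stayed low, with a median of 0.526 CPM and a highest mean of 2.27 CPM. The reverse set, near silent with SAHA at the same cutoff, held 36707 genes, of which 58 were tested and 14 called lower, a number that was 31 without SAHA replicate 1 and over 1.5 times 14 also without SAHA replicate 3 (22), BEZ-235 replicate 1 (23) or 2 (24), or combination replicate 1 (26) or 2 (24). The gene nearest the cutoff inside the DMSO set was YBX2 at a mean of 0.0976 CPM, and the nearest outside was AL831711.1 at 0.1002 CPM.

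The 12 named genes of this set were those with the highest level with SAHA, a standard symbol and no overlap. GMPR, a GMP reductase of purine metabolism (ENSG00000137198, chromosome 6, 16238580 to 16295549), stood at 3.03, 2.04 and 1.75 CPM with SAHA, against 0, 0.0471 and 0 CPM with DMSO, from 272 counts with SAHA and 1 with DMSO. The ratio of the counts, scaled for depth, was 134 (exact 95% interval 23.8 to 5292, counting error only). YBX2, a germ cell RNA-binding protein, stood at 2.98, 1.35 and 1.44 CPM with SAHA, against 0.157, 0.0471 and 0.0889 CPM with DMSO (log2 fold change 4.21 ± 0.46, adjusted p = 2.23e-06). The linker histone gene HIST1H1D stood at 2.98, 1.53 and 1.13 CPM with SAHA, against 0.0522, 0.141 and 0.0889 CPM with DMSO (log2 fold change 4.198 ± 0.50, adjusted p = 5.38e-06), CNN1, the calponin of smooth muscle, at 2.26, 1.496 and 1.099 CPM with SAHA, against 0.104, 0.0471 and 0.133 CPM with DMSO (log2 fold change 3.99 ± 0.44, adjusted p = 2.48e-06), and CDH23, a cadherin of hair cells, at 1.03, 1.32 and 1.06 CPM with SAHA, against 0, 0.235 and 0.0445 CPM with DMSO (log2 fold change 3.53 ± 0.55, adjusted p = 8.15e-05). EIF4E3, a cap-binding protein, LGI3, a secreted neuronal protein, and SEPT14, a septin, had 3, 2 and 2 counts with DMSO, against 182, 156 and 158 with SAHA. ADAMTS6, FAM49A, FXYD7 and SLC30A3 had log2 fold changes of 4.33 ± 0.58, 4.53 ± 0.61, 3.67 ± 0.49 and 3.66 ± 0.52. SAHA replicate 1 gave the highest value in 9 of the 12. Another 16 of the 134 genes were at 0 in all DMSO libraries. Against the 3 counts over the DMSO group that a count of 0 allows, they were at least 1.73-fold to at least 21.2-fold higher with SAHA.

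The summed level of the 134 genes was 99.7, 74.6 and 72.4 CPM with SAHA, against 6.27, 7.01 and 6.72 CPM with DMSO. All SAHA libraries were above all DMSO libraries, as the choice of the genes requires. The 6 libraries with BEZ-235 entered the count filter and the estimate of spread, but not the fold change. There the sum was 141, 142 and 151 CPM with BEZ-235 and SAHA, against 29.3, 26.9 and 27.1 CPM with BEZ-235. Of the 134 genes 113 were called higher with BEZ-235 and SAHA than with BEZ-235 and 2 lower. Counts in the libraries with BEZ-235 and SAHA helped such genes past the filter, so this number is a description and is not read against that of all genes.

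**Figure D4:**
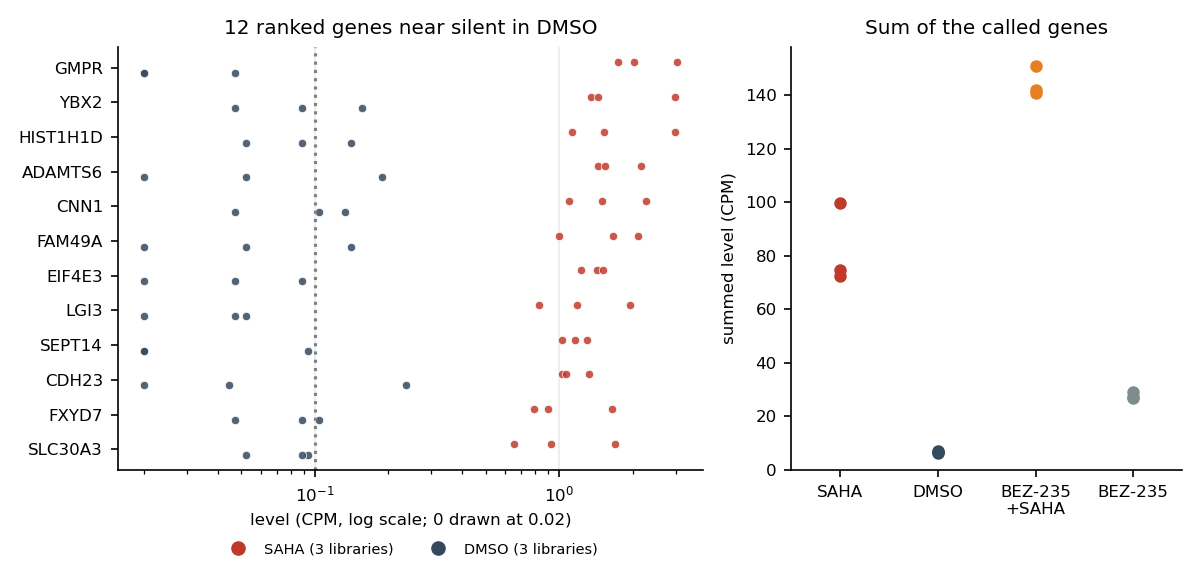
Left, level per library of the 12 ranked genes near silent in DMSO, in CPM on a log scale, SAHA in red above DMSO in dark blue; the dotted line marks 0.1 CPM and a value of 0 is drawn at 0.02. Right, summed level of all 134 genes called higher, 3 libraries per group, with 72.4 to 99.7 CPM with SAHA and 6.27 to 7.01 CPM with DMSO.

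Among genes that SAHA took down to near silence, CHRNA1, the muscle nicotinic receptor subunit, stood at 0.0514, 0.0126 and 0.0687 CPM with SAHA, against 1.72, 0.518 and 0.623 CPM with DMSO (log2 fold change -4.65 ± 0.73, adjusted p = 1.38e-04). PKP1, a desmosome protein, stood at 0.103, 0.0754 and 0.0343 CPM with SAHA, against 0.679, 0.518 and 0.8005 CPM with DMSO (log2 fold change -3.17 ± 0.53, adjusted p = 1.42e-04). DMSO replicate 1 was the highest library for CHRNA1, and the groups did not overlap for either gene. CLEC18C stood at 0.0514, 0.0251 and 0.0687 CPM with SAHA, against 1.25, 0.376 and 0.356 CPM with DMSO (log2 fold change -3.85 ± 1.08, adjusted p = 0.0107). It has near-identical paralogs among which reads can be split, and the call was lost without DMSO replicate 1 or SAHA replicate 2.

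The number of genes detected at equal depth was above DMSO in all SAHA libraries. With each library thinned to the depth of the shallowest, 18901, 18653 and 18418 genes had at least 5 reads with SAHA, against 18057, 17874 and 18151 with DMSO. The means differed by 630 genes. An exact 2-sided permutation test gave p = 0.1, the smallest value that 3 against 3 allows. The difference was 482 genes at a minimum of 10 reads and 1034 at a minimum of 1 read.

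The most abundant transcripts moved in both directions, mostly by less than 2-fold. Of the 200 genes with the highest mean CPM, a ranking that favours long transcripts, 44 were called higher (22.0%) and 43 lower (21.5%), and 113 were not called. That ranking uses the SAHA libraries too, and the balance changed with it: ranked on the DMSO libraries alone, 31 were higher (15.5%) and 53 lower (26.5%), and ranked on the BEZ-235 libraries 27 were higher (13.5%) and 47 lower (23.5%). With the offsets for GC content and length 45 were higher and 60 lower. Without SAHA replicate 1 the number lower was 24. Only 3 of the 200 rose at least 2-fold, and H19 alone fell as much. Together the 200 took 29.5, 28.6 and 29.01% of counts with SAHA, against 27.8, 28.7 and 27.9% with DMSO. The groups overlapped and the exact 2-sided permutation test gave p = 0.2. For the 200 most abundant nuclear genes, a choice made after seeing the data, the means were 19.1% with SAHA and 19.2% with DMSO, the opposite direction, with an exact 2-sided permutation p = 0.8. Of the 13 protein genes of mitochondrial DNA 1 was called, and the first in rank, MT-CO1 of complex IV, stood at 27907, 23357 and 24412 CPM with SAHA, against 22658, 24178 and 24564 CPM with DMSO (log2 fold change 0.08 ± 0.10, adjusted p = 0.538).

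The 3 abundant genes that rose 2-fold were NEAT1, AHNAK and APLP2. NEAT1, the long RNA on which paraspeckles form, stood at 1199, 838 and 715 CPM with SAHA, against 351, 268 and 369.6 CPM with DMSO (log2 fold change 1.48 ± 0.18, adjusted p = 3.56e-05). AHNAK, a giant scaffold protein, stood at 2792, 2401 and 2065 CPM with SAHA, against 1069, 855 and 1135 CPM with DMSO (log2 fold change 1.25 ± 0.11, adjusted p = 3.32e-07), and APLP2, a relative of the amyloid precursor protein, at 1311, 1319.6 and 1314 CPM with SAHA, against 668, 641 and 657 CPM with DMSO (log2 fold change 1.005 ± 0.07, adjusted p = 3.399e-08). NEAT1 and AHNAK were highest in SAHA replicate 1, while APLP2 was even. PSAP, the precursor of lysosomal saposins, stood at 2789.9, 2483 and 2531 CPM with SAHA, against 1339, 1428 and 1339 CPM with DMSO (log2 fold change 0.93 ± 0.08, adjusted p = 3.36e-07), and YPEL5, CLU and DYNLT1 had log2 fold changes of 0.86 ± 0.09, 0.77 ± 0.08 and 0.74 ± 0.10. Among abundant genes that fell after H19, HDGF, a growth factor, stood at 497, 580.5 and 605 CPM with SAHA, against 853, 977 and 826 CPM with DMSO (log2 fold change -0.66 ± 0.09, adjusted p = 2.96e-05), SCD, the stearoyl-CoA desaturase, at 457, 491 and 475 CPM with SAHA, against 780.4, 680.0 and 760.2 CPM with DMSO (log2 fold change -0.64 ± 0.08, adjusted p = 8.696e-06), and NPM1, a nucleolar chaperone, at 661, 730.3 and 813 CPM with SAHA, against 1002, 1142 and 971 CPM with DMSO (log2 fold change -0.50 ± 0.10, adjusted p = 0.00101). The ribosomal protein genes RPL10 and RPS2 and the actin gene ACTG1 fell by 0.55, 0.51 and 0.54 on the log2 scale, and these have processed copies in the genome among which reads can be split. Of 55 cytosolic ribosomal protein genes 2 were higher and 12 lower, beside 20.9% lower over all genes, and the number lower was 8 to 19 over the alternatives.

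The balance of calls differed between classes of genomic span. Of 3533 genes that span 82.1 kb or more 36.8% were called higher and 14.1% lower (median log2 fold change 0.16). In the middle class, 3533 genes of 15.4 to 35.0 kb, 20.0% were higher and 26.5% lower (median -0.07). Of 3532 genes that span 4.66 to 15.4 kb, the class next to the shortest, 18.8% were higher and 28.6% lower (median -0.10). The shortest class, 3533 genes under 4.66 kb, did not continue this order, with 12.5% higher and 13.5% lower (median -0.02). Among genes at 10 CPM or more 37.0% were higher and 15.5% lower in the longest class, over 102 kb, and 14.9% were higher and 36.6% lower in the shortest, under 11.4 kb. Spearman's correlation of fold change with span was 0.134 over 17663 genes and 0.07 in a fit with offsets for the GC content and length of transcripts, and these genes share libraries and base composition. By type, lincRNAs were 20.8% higher and 8.43% lower of 902 tested, antisense RNAs 14.3% and 10.3% of 1229, and protein coding genes 24.9% and 24.8% of 13468.

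The response was then read in the 6 libraries with BEZ-235, which share none with the SAHA and DMSO groups. Of the 1372 genes at least 2-fold higher with SAHA alone, 1124 were called higher with BEZ-235 and SAHA than with BEZ-235 (81.9%), 10 were called lower and 1305 had the same sign. Over all genes tested 29.5% were called higher and 28.5% lower in that comparison. Of the 464 at least 2-fold lower, 232 were called lower (50%) and 28 higher. With offsets for GC content and length these became 1146 and 6 for the higher genes, and 325 and 7 for the lower ones. The shares called the same way were then 83.5% and 70.0%. Of the 1372 higher genes 533 had a mean under 1 CPM over the 6 SAHA and DMSO libraries. Counts in the combination libraries can help such scarce genes past the filter, so these shares are a description. Spearman's correlation of both fold changes was 0.471 over 17774 genes, and the fold change with BEZ-235 had a correlation of 0.5 with transcript GC content, against -0.142 for the one without.

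Single genes show both outcomes. MFAP4 fell again, at 7.23, 6.73 and 7.78 CPM with BEZ-235 and SAHA, against 31.7, 32.2 and 32.6 CPM with BEZ-235 (-2.15 ± 0.11 on the log2 scale, adjusted p = 5.23e-10), and H19 fell again, to 244, 302 and 317 CPM with BEZ-235 and SAHA, against 1089, 1252 and 955 CPM with BEZ-235 (-1.93 ± 0.15, adjusted p = 1.33e-07). PMEL rose again, to 87.98, 82.3 and 74.4 CPM with BEZ-235 and SAHA, against 10.7, 9.09 and 10.1 CPM with BEZ-235 (3.03 ± 0.09, adjusted p = 6.17e-12). All 3 changes were smaller than without BEZ-235 (called interactions), but for H19 that difference was not called after the offsets (adjusted p = 0.105). DHRS2 had a larger change than without BEZ-235, at 104, 77.2 and 114 CPM with BEZ-235 and SAHA, against 4.29, 4.28 and 3.91 CPM with BEZ-235 (4.57 ± 0.15, adjusted p = 6.17e-12), and SCG2 moved by a log2 fold change that was close in both (1.93 ± 0.10, against 1.98 ± 0.10 without BEZ-235).

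The difference between both SAHA effects was tested as an interaction, which called 6834 genes (38.4%) and 3477 with the offsets. Among genes called with SAHA alone whose log2 CPM averaged 3 or more, those with the most negative interaction were RGS5, PCSK1, SYT4, ZNF107 and ZNF92. RGS5 stood at 15.4, 16.3 and 12.02 CPM with BEZ-235 and SAHA, against 5.09, 8.29 and 6.71 CPM with BEZ-235, a smaller rise than without BEZ-235 (interaction -2.699 ± 0.25, adjusted p = 9.02e-06). PCSK1, a prohormone convertase, stood at 81.1, 87.3 and 80.96 CPM with SAHA, against 54.3, 41.3 and 50.5 CPM with DMSO, and at 34.5, 33.5 and 33.6 CPM with BEZ-235 and SAHA, against 69.4, 110.5 and 96.6 CPM with BEZ-235 (interaction -2.22 ± 0.19, adjusted p = 9.02e-06), so that it rose without BEZ-235 and fell with it. SYT4, a synaptotagmin of dense-core vesicles, rose without BEZ-235 (1.73 ± 0.13) and was lower with it (-0.37 ± 0.12, adjusted p = 0.01701), where the offsets turned the sign (0.16, adjusted p = 0.139). The zinc finger genes ZNF107 and ZNF92 fell in both, by more with BEZ-235. The fall of ZNF107 without it lost its call without SAHA replicate 2 or DMSO replicate 3.

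The most positive interactions were those of CSPG4, C9orf16, PLXDC1, ARC and NME3. CSPG4, a pericyte proteoglycan, stood at 29.4, 33.1 and 31.7 CPM with SAHA, against 63.9, 57.5 and 58.04 CPM with DMSO, and at 17.97, 23.1 and 28.9 CPM with BEZ-235 and SAHA, against 6.65, 8.29 and 7.698 CPM with BEZ-235 (interaction 2.56 ± 0.19, adjusted p = 3.72e-06). It thus fell without BEZ-235 and rose with it. PLXDC1 fell without BEZ-235 and was at 0.28 ± 0.11 with it (adjusted p = 0.0404), or 0.15 after the offsets (adjusted p = 0.231). ARC, an immediate early gene of neurons, was at -1.66 ± 0.14 without BEZ-235 and 0.38 ± 0.14 with it, but at -0.43 with it after the offsets. C9orf16 and NME3 fell without BEZ-235 and rose with it, but their fall lost its call without any 1 SAHA library and without DMSO replicate 1 or 2. ACTG1 was likewise lower without BEZ-235 and higher with it (0.65 ± 0.11, adjusted p = 7.49e-05, interaction 1.19 ± 0.15).

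**Figure D5:**
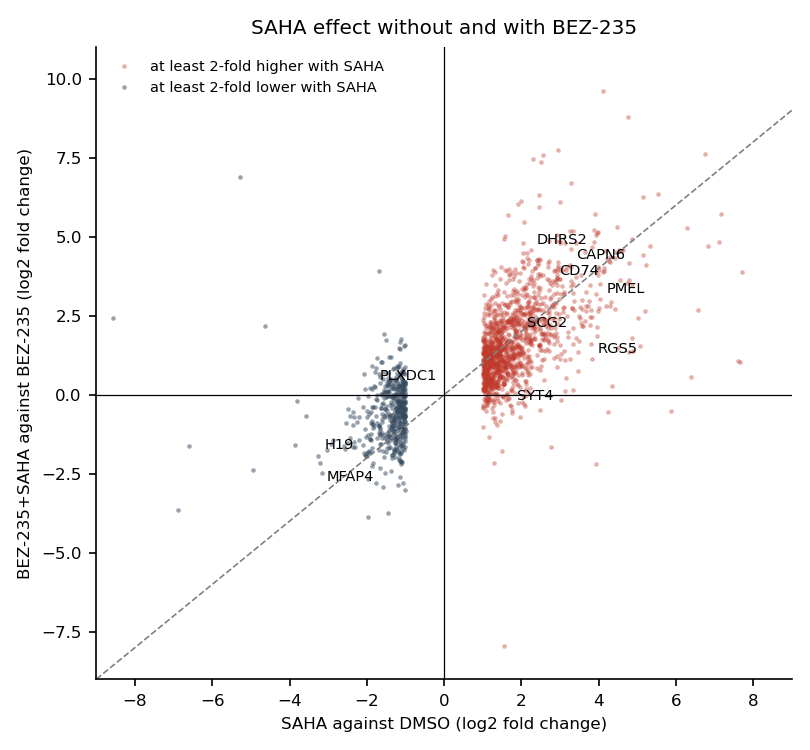
Each point is a gene called and at least 2-fold changed with SAHA against DMSO, 1372 higher in red and 464 lower in dark blue; the x axis is log2 of SAHA over DMSO and the y axis log2 of BEZ-235+SAHA over BEZ-235. The dashed line marks equal effects, and 1305 of the higher and 343 of the lower genes have the same sign on both axes.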

How the data were processed

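RNA of 12 NB-1 cultures was sequenced from poly(A)-selected, stranded libraries, per the labels' protocols. Reads were aligned with STAR to hg38 and quantified with RSEM, per the submitters' processing notes. The tool versions and the annotation used were not given in the sources used here. As deposited by the authors, the files hold expected counts per gene, estimates that share multi-mapped reads and need not be whole. They were rounded to whole numbers here. Gene types, positions and spans came from GENCODE 29, which matched 57447 of 58051 genes. Genes were filtered with filterByExpr, scaled by TMM and tested with edgeR 4.0.16 (R 4.3.3; glmQLFit, robust, 4 group means over 12 libraries, 8 residual degrees of freedom, 2-sided, Benjamini-Hochberg over 17774 genes), and DESeq2 1.42.0 was an alternative. The filter kept at least 99.87% of each library's counts, and the procedure was tested on simulated data. Library totals ran from 17662944 to 79543539 counts, and the biological coefficient of variation was 10.6%. Intervals and floors cover counting error only.

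The comparison, the gene lists and the tests were chosen with earlier results of these data known, and some lists come from that earlier work. Named genes were HBP1, MYCN and ALK, the 12 highest and 12 lowest fold changes among called genes at a mean log2 CPM of at least 3 with no overlap, the 12 and 6 most abundant genes of the near-silent sets, the 5 most abundant genes and the 8 highest and 8 lowest called among the 200 most abundant, up to 3 members a direction of each list by p, all deacetylases, and the 5 highest and 5 lowest interactions. The text prints part of these. RRP9, SRM and the neighbours on chromosome 11 were picked after their values were seen. Promoters are RefSeq windows of GRCh38.p14, matched by symbol for 11726 of the 17774 genes. Same-numbered libraries did not deviate together, as given with the alternatives.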

Additional observations from a re-analysis of the deposited data

Results flagged for a closer look

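The effect of SAHA in the presence of BEZ-235 differed from its effect alone, by the interaction test of edgeR, in 15 of the 16 genes whose effect with BEZ-235 is given above, SCG2 being the exception. That test called 38.4% of all genes tested. RGS5, PCSK1, SYT4, ZNF107, ZNF92, CSPG4, C9orf16, PLXDC1, ARC and NME3 were named because their interaction was called. Most of the 15 were thus fixed by the choice, and the count is a description. The values below are the effect with BEZ-235 minus the effect without it, on the log2 scale. The interaction was negative for RGS5 (-2.699 ± 0.25), PCSK1 (-2.22 ± 0.19), SYT4 (-2.095 ± 0.17), ZNF107 (-1.87 ± 0.24), ZNF92 (-1.82 ± 0.26) and PMEL (-1.001 ± 0.13). It was positive for CSPG4 (2.56 ± 0.19), DHRS2 (2.33 ± 0.26), C9orf16 (2.28 ± 0.35), PLXDC1 (2.101 ± 0.15), ARC (2.04 ± 0.20), NME3 (2.02 ± 0.42), H19 (1.33 ± 0.21), ACTG1 (1.19 ± 0.15) and MFAP4 (1.07 ± 0.15). With offsets for GC content and length all but H19 stayed past the threshold, and those of PCSK1 and CSPG4 were -1.89 and 1.74. These genes were chosen for their values. The fold change of BEZ-235 and SAHA against BEZ-235 also went with the GC content of transcripts. What part base composition has in a single gene's interaction was not tested further.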

How the results depend on the processing

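Of the 133 called genes that the naming rule gave and the text prints, 124 were called the same way in every alternative that gave a value. The other 9, which lost the call somewhere, are HBP1, MYCN, CHGA, CLEC18C, HDAC5, HDAC10, C9orf16, NME3 and ZNF107. HDAC2, not called, turned to -0.0177 with the GC and length offsets. Fits that left out 1 library each gave 3337 to 4143 genes higher and 2996 to 3920 lower, 1279 to 1442 higher and 432 to 494 lower by 2-fold, 4569 to 5285 higher and 4479 to 5226 lower with BEZ-235, and 5371 to 7470 interactions, against 3477 with the GC and length offsets. The number of genes near silent in DMSO and called higher was 141 to 188 leaving out 1 library, 9 at a mean of at least 1 CPM, 481 with no filter, 59 with only the SAHA and DMSO libraries, 71 under 0.05 CPM and 421 under 0.3 CPM. Its mirror was 13 to 31, and 0, 123, 5, 9 and 73 under the same 5 choices. Among the most abundant genes 38 to 47 were higher and 24 to 48 lower leaving out 1 library. Ranking on the DMSO libraries gave 31 higher and 53 lower, on the BEZ-235 libraries 27 and 47, the 50 most abundant 12 higher and 9 lower, and the 500 most abundant 118 and 123. The share of counts of the 200 genes, SAHA minus DMSO, was 0.50 to 1.18 percentage points leaving out 1 library, and -0.14 for nuclear genes, added after seeing the data. The difference in detected genes was 508 to 749.7 leaving out 1 library, 1034 at 1 read, 482 at 10 reads and 2271 with each library at its own depth. A mean of at least 1 CPM left 929 genes 2-fold higher and no filter left 1770. Same-numbered SAHA and DMSO libraries had correlations of deviations of -0.034, -0.136 and -0.157, so the numbers do not pair them, and a replicate block gave 3660 higher and 3435 lower, with HBP1 and NME3 not called. Depth limits the scarce genes most, where 1 count is about 0.05 CPM in most libraries. The causes of these shifts were not tested.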
